A study of Homo sapiens with 24 samples.

Results

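BMF, the gene of one of the BH3-only promoters of cell death, was described over all 8 groups of the series. It is 1 of 58735 gene entries in each of 24 deposited count files, and it was selected on its measured changes in HCC1395, so its own values stand as a description with standard errors and with no test. The series holds polyadenylated RNA of 3 human breast cancer cell lines, with 3 libraries in each group. HCC1395 cells were given 5 uM tazemetostat and 5 uM ipatasertib together (EZH2i+AKTi), 5 uM ipatasertib alone (AKTi), 5 uM tazemetostat alone (EZH2i) or the solvent DMSO. HCC1937 and HCC38 cells were given EZH2i+AKTi or DMSO, with neither agent alone. Tazemetostat inhibits the histone methyltransferase EZH2, and ipatasertib inhibits the AKT kinases. All 3 lines are established and come from triple-negative tumours, which lack hormone receptors and HER2 amplification. The labels describe a timed treatment for MDA-MB-468 cells and for a chromatin assay, and how long the cells of these RNA samples were treated is not stated. Whether the libraries of a group came from separate cultures is not stated either, so the errors below measure the spread between these libraries, which may be technical.

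BH3-only proteins carry 1 conserved helix, the BH3 domain, with which they bind the groove of pro-survival proteins such as BCL2, BCL-XL and MCL1. This frees or activates BAX and BAK, which open the outer mitochondrial membrane and let out cytochrome c, the start of the caspase cascade. BMF is held at the actin-bound myosin V motor by dynein light chain DYNLL2 and can be released when cells lose attachment or when JNK kinases phosphorylate it. In the mammary gland it is known for the death of detached cells in the lumen. EZH2 is the catalytic subunit of Polycomb repressive complex 2 (PRC2), which places the repressive mark H3K27me3. AKT phosphorylates FOXO transcription factors and keeps them out of the nucleus, so AKT inhibition lets them act on their target genes.

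BMF lies on chromosome 15, at chr15:40087890-40108892 on the minus strand (GRCh38, GENCODE release 29, ENSG00000104081.13). The antisense gene BMF-AS1 lies inside it on the plus strand, at chr15:40088832-40089386, and its own entry had 0 counts in every library. The strand setting of the counting is not given in the sources used here, so reads from the 2 strands of this stretch cannot be told apart. RefSeq (GRCh38.p14) lists 2 start sites for BMF. The 250 bases before each are shown because promoters are where transcription factors and chromatin marks are usually studied. Capitals mark TGTTT, the core of the forkhead motif, searched on both strands.
BMF start site 1, chr15:40108880-40109129, minus strand: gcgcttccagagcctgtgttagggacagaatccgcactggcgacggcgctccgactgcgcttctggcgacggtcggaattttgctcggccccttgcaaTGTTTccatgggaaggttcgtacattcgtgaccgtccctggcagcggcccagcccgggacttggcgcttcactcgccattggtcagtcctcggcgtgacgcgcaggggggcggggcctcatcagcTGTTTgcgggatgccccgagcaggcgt
BMF start site 2, chr15:40106967-40107216, minus strand: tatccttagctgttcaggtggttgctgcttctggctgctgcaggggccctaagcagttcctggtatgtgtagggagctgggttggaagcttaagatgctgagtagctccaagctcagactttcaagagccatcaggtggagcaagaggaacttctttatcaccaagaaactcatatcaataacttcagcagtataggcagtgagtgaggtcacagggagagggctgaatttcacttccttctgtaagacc
The first window had a GC content of 65.2% and 26 CpG dinucleotides, more than 80.4% of the 35116 promoters in the same table, whose medians were 58.0% and 11. The second had a GC content of 48.8% and 0 CpG. TGTTT stood at bases -152 to -148 and -27 to -23 of the first window and not in the second, and 40.4% of all promoters hold it. The longer forkhead form TGTTTAC (in 3.0% of promoters), the STAT form TTCNNNGAA (6.6%) and the GATA form AGATAA (9.2%) were in neither window. The motifs were chosen with the sequence in view, and a match or its absence in a window is no statement about a factor.

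Library totals were 33469927 to 51815656 counts. In HCC1395 the mitochondrial share of counts was 6.20% ± 0.0852 (SD, n = 3) under EZH2i+AKTi, 5.55% ± 0.192 under AKTi, 4.74% ± 0.386 under EZH2i and 3.85% ± 0.0797 in DMSO, the order of the BMF levels below. Of 5 markers of luminal epithelium, 3 were called higher under EZH2i+AKTi in HCC1395 by edgeR's quasi-likelihood test: KRT8 (adjusted p = 1.11e-13), KRT18 (4.09e-13) and EPCAM (1.19e-05). Over all genes 32.5% were called higher and 27.4% lower in that comparison, and 5 markers are few. The summed level of the 5 markers had the same order as BMF, 192 to 230.0 CPM (counts scaled to a common library size) under EZH2i+AKTi, 142 to 155 under AKTi, 92.5 to 104 under EZH2i and 61.1 to 69.5 in DMSO. The luminal defining markers CDH1 and KRT19 were near 0 in HCC1395, with CDH1 at 0.0258 to 1.02 CPM and KRT19 at 0.239 to 2.08 CPM. The summed level of 4 mesenchyme markers in HCC1395 was 3066 to 3412 CPM under EZH2i+AKTi, 3547 to 3806 under AKTi, 2096 to 2137 under EZH2i and 2232 to 2428 in DMSO, an order other than that of BMF. The summed level of 4 basal markers in HCC1395 was 484 to 558 CPM under EZH2i+AKTi, 335 to 358 under AKTi, 591 to 618 under EZH2i and 445 to 465 in DMSO. That order also differed from that of BMF. The part of these shifts in the BMF levels was not tested. Summed leukocyte markers stood at 0.499 to 9.52 CPM over all libraries. Of the HCC38 libraries given EZH2i+AKTi, replicate C had 7.77% of its counts on mitochondrial genes, and replicates A and B had 4.76% and 5.19%.

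In HCC1395, BMF was higher under each agent alone and highest under both. Replicates A, B and C had 5337, 4621 and 3458 BMF counts under EZH2i+AKTi, 2577, 2319 and 2428 under AKTi, 1648, 2225 and 1899 under EZH2i and 441, 393 and 390 in DMSO. On the CPM scale, after TMM scaling within the line, these were 101.1, 92.2 and 101.1 under EZH2i+AKTi, 65, 60.4 and 64.8 under AKTi, 47.9, 46.2 and 46.7 under EZH2i, and 11.6, 11 and 10.7 in DMSO. The 4 groups did not overlap, and the replicates of a group lay within a few CPM of each other except for EZH2i+AKTi replicate B. The log2 change against DMSO was 3.14 ± 0.06 (SE, n = 3 libraries a group here and below) under EZH2i+AKTi, an 8.81-fold difference. It was 2.51 ± 0.06 under AKTi (5.70-fold) and 2.08 ± 0.06 under EZH2i (4.22-fold). EZH2i+AKTi stood 1.06 ± 0.05 above EZH2i alone and 0.63 ± 0.05 above AKTi alone on the log2 scale, and AKTi stood 0.43 ± 0.06 above EZH2i.

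**Figure D1:**
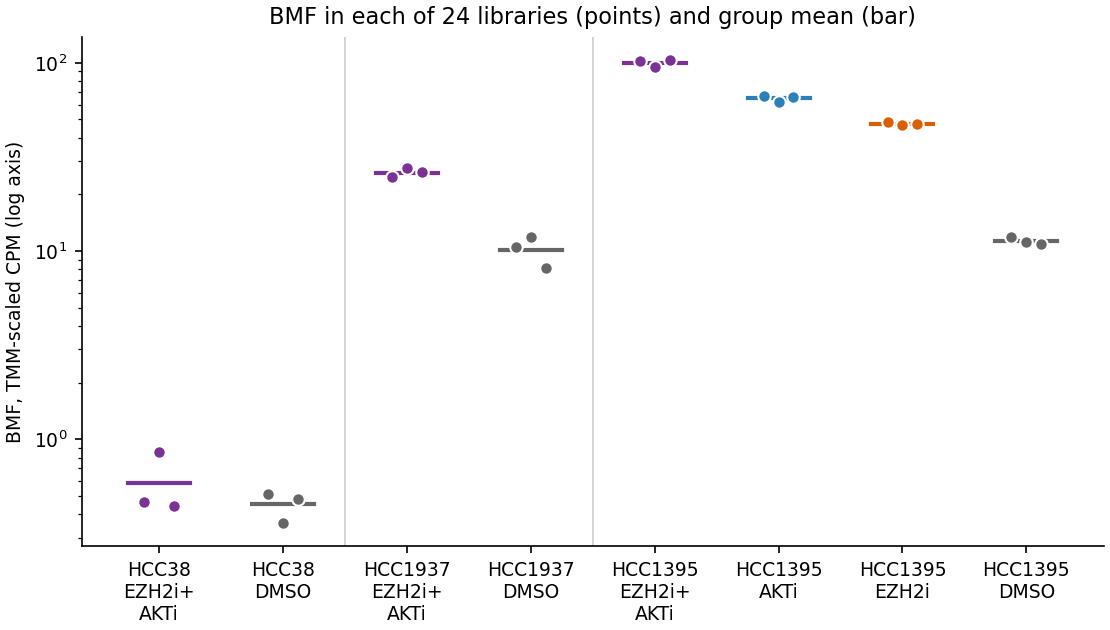
BMF in each library in TMM-scaled CPM of the fit over all 24 libraries (log axis), with points for libraries and bars for group means. HCC38 lies at or below 0.856 CPM in both groups, and in HCC1937 and HCC1395 every treated library lies above every DMSO library.

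Many genes were called in these cells. In edgeR's quasi-likelihood test with Benjamini-Hochberg adjustment over 18074 genes, EZH2i+AKTi in HCC1395 called 32.5% of genes higher and 27.4% lower at an adjusted p under 0.05. AKTi called 27.1% higher and 22.6% lower, and EZH2i called 18.8% higher and 14.9% lower. In the same 18074 genes, 231 had a larger log2 change than BMF under EZH2i+AKTi, 59 under AKTi and 472 under EZH2i. By the F statistic, which sets a change against its spread, BMF ranked 2 under EZH2i+AKTi, 3 under AKTi and 4 under EZH2i. BMF was selected on these changes, so its ranks restate that choice and are no test.

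The rise under both agents was close to the sum of the single rises in CPM. AKTi added 52.3 ± 1.51 CPM (SE) and EZH2i added 35.8 ± 0.567 CPM to the DMSO level, 88.1 ± 1.66 in sum, and EZH2i+AKTi added 87.0 ± 3.0. The level observed under both, 98.1 ± 2.99 CPM (SE), was 0.989 times the 99.2 ± 1.59 CPM that the sum predicts. Multiplying the 2 folds instead predicts 267 CPM, and the observed level was 0.367 times that. The interaction, the response to both less the sum of the single responses, was therefore -1.09 ± 3.38 CPM on the CPM scale and -1.45 ± 0.08 on the log2 scale (95% interval -1.62 to -1.27). The CPM interaction depended on replicate B of EZH2i+AKTi, the lowest of its group: without it the value was 4.23 CPM, and the log2 interaction was -1.32.

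**Figure D2:**
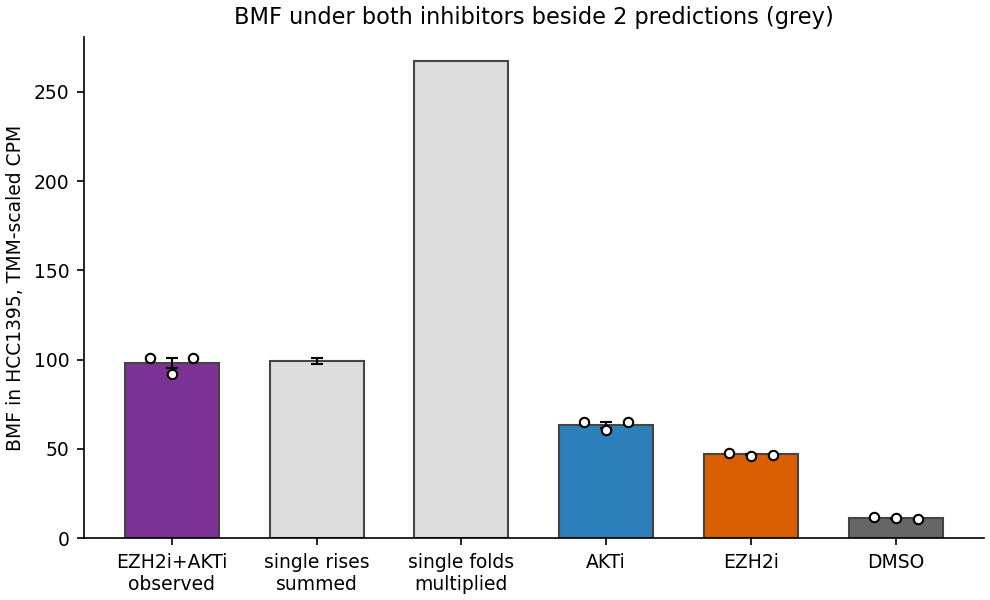
BMF in HCC1395 in TMM-scaled CPM: observed group means with their 3 libraries (white points) and SE, and 2 predictions for EZH2i+AKTi (grey). The observed level of 98.1 CPM stands beside 99.2 CPM from the summed rises and 267 CPM from the multiplied folds, which has no error bar.

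The log2 interaction of BMF had the largest F statistic of all 18074 genes, although 166 genes had a more negative value. BMF was selected with this value known, so the rank restates the selection and is no test. Called interactions were few: 0.526% of genes (95) were higher and 1.06% (191) lower than the sum of the single log2 changes. These counts depended on single libraries and ran from 38 (without EZH2i replicate B) to 485 higher (without EZH2i+AKTi replicate B) and from 64 (without EZH2i replicate A) to 656 lower (without EZH2i+AKTi replicate C). Of 1341 genes called higher under each agent, 1152 (85.9%) had a negative log2 interaction, and the rise under both was a median 0.955 times the summed single rises (quartiles 0.765 and 1.18). BMF, at 0.988, lay near that median. Of the 203 genes at least 2-fold higher under each agent, 191 (94.1%) had a negative log2 interaction, and the median ratio was 1.14. These sets were chosen on the EZH2i, AKTi and DMSO libraries, which also enter the interactions and the ratios. Choosing genes with high values under the single agents pushes both down, so the shares and ratios are not independent of the choice.

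In HCC1937, BMF was higher under EZH2i+AKTi. Replicates A, B and C had 908, 1116 and 1201 counts under EZH2i+AKTi, against 437, 540 and 392 in DMSO, or 24.9, 28.1 and 26.5 CPM against 10.7, 12.1 and 8.35 CPM on the scale of that line. The groups did not overlap. The log2 change was 1.36 ± 0.11 (95% interval 1.12 to 1.60), a 2.56-fold difference. There 30.5% of 17692 genes were called higher and 28.8% lower, and 1285 genes had a larger log2 change than BMF. Its mitochondrial share was 7.45% ± 0.960 under EZH2i+AKTi and 5.77% ± 0.843 in DMSO (SD, n = 3). Its luminal markers summed to 5053 to 5724 CPM under EZH2i+AKTi and 6037 to 6523 in DMSO, lower under treatment where BMF was higher. KRT18 went against that sum, with 1778.3, 1780.5 and 1931.8 CPM under EZH2i+AKTi and 1735.7, 1677.4 and 1718.3 in DMSO on the scale of that line. KRT8, KRT19, EPCAM and CDH1 were lower. Its 3 endothelium markers summed to 63.7 to 68.6 CPM under EZH2i+AKTi and 35.0 to 38.1 in DMSO, and all 3 were called higher: PECAM1 (edgeR adjusted p = 9.49e-06), CDH5 (2.18e-08) and VWF (0.000758). The part of these shifts in the BMF level was not tested.

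In HCC38, BMF was close to silent with and without treatment. Replicates A, B and C had 19, 38 and 16 counts under EZH2i+AKTi and 18, 12 and 17 in DMSO, or 0.470, 0.864 and 0.445 CPM under EZH2i+AKTi and 0.528, 0.372 and 0.493 CPM in DMSO. The groups overlapped, and replicate B of EZH2i+AKTi was the only library above the DMSO range. The exact Poisson 95% interval of its 38 counts is 26.9 to 52.2, and that of the 12 counts of DMSO replicate B is 6.20 to 21.0, counting error only. The log2 change was 0.36 ± 0.36 (95% interval -0.43 to 1.16) and was 0.01 without EZH2i+AKTi replicate B. The luminal markers of HCC38 summed to 2625 to 3188 CPM under EZH2i+AKTi and 3312 to 3629.9 in DMSO. KRT18 alone went against that sum in every library, with 820.2, 777.6 and 640.4 CPM under EZH2i+AKTi and 553.3, 611.3 and 535.7 in DMSO on the scale of that line. In HCC38 the same treatment called 16.8% of 17100 genes higher and 14.5% lower.

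Across lines the treated levels spanned more than 2 orders of magnitude. In a fit of all 24 libraries, BMF averaged 100.3 ± 5.07 CPM (SD, n = 3) in HCC1395 under EZH2i+AKTi, 64.7 ± 2.72 under AKTi and 47.5 ± 0.792 under EZH2i. Next came HCC1937 under EZH2i+AKTi with 26.1 ± 1.44 CPM. HCC1395 DMSO, at 11.3 ± 0.521, and HCC1937 DMSO, at 10.2 ± 1.89, overlapped. HCC38 was lowest, with 0.588 ± 0.232 under EZH2i+AKTi and 0.451 ± 0.0811 in DMSO, and these 2 groups overlapped as well. The DMSO level of HCC1937 lay 0.15 ± 0.11 below that of HCC1395 on the log2 scale (difference -0.15, 95% interval -0.37 to 0.07). HCC38 DMSO lay far below HCC1395 DMSO, by a log2 difference of -4.63 ± 0.23, and HCC1937 DMSO lay 4.48 ± 0.23 above HCC38 DMSO. In bulk samples, fewer cells with BMF and less BMF RNA per cell cannot be told apart.

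The response to EZH2i+AKTi was smaller in HCC1937 than in HCC1395, although their DMSO levels overlapped. The log2 response of HCC1937 less that of HCC1395 was -1.79 ± 0.14 (95% interval -2.08 to -1.49). That of HCC38 less HCC1395 was -2.74 ± 0.30 (-3.36 to -2.13). The response of HCC38 less that of HCC1937 was -0.96 ± 0.30 (-1.57 to -0.34) and was -1.35 without HCC38 EZH2i+AKTi replicate B. Over 20697 genes, edgeR called 33% of response differences between HCC38 and HCC1395, 23.3% between HCC1937 and HCC1395 and 32% between HCC38 and HCC1937, in either direction.

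Of the other 7 BH3-only genes, HRK was the one called higher under each agent in HCC1395 and, as BMF was, highest under both. Under EZH2i+AKTi in HCC1395, 3 of 7 were called higher and 1 lower (median log2 change 0.28, against 0.07 over all genes), beside 32.5% higher and 27.4% lower over all genes. Under AKTi 3 were called higher and 1 lower (median 0.08, all genes 0.06), and under EZH2i 2 and 0 (median -0.07, all genes 0.02). Over all genes the shares were 27.1% higher and 22.6% lower under AKTi and 18.8% and 14.9% under EZH2i. With 7 genes, counts this near those shares say nothing particular about the list. HRK, a BH3-only gene best known from neurons, was called under EZH2i+AKTi (log2 change 2.73 ± 0.42, edgeR adjusted p = 4.06e-06), AKTi (1.59 ± 0.44, 0.00371) and EZH2i (1.5 ± 0.44, 0.00895), at low levels of 1.95, 0.881 and 0.835 CPM under these treatments against 0.292 CPM in DMSO. The HRK call under EZH2i was lost without DMSO replicate C (log2 1.17) or EZH2i replicate C (1.14).

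BBC3, which encodes PUMA, was called higher under EZH2i+AKTi (1.74 ± 0.12, edgeR adjusted p = 1.2e-10) and AKTi (1.69 ± 0.12, 3.92e-10) and had 0.16 ± 0.13 under EZH2i (0.377). Its AKTi libraries stood 1.53 ± 0.12 above its EZH2i libraries (8.95e-10). BIK went the other way: it was called higher under EZH2i+AKTi (1.04 ± 0.28, 0.00266) and EZH2i (1.22 ± 0.28, 0.00157) and had -0.44 ± 0.32 under AKTi (0.27), with a difference of -1.66 ± 0.29 between AKTi and EZH2i (4.6e-05). BCL2L11, which encodes BIM and is a known FOXO target, had 0.28 ± 0.12 under EZH2i+AKTi (0.062) and was called under AKTi (0.37 ± 0.13, 0.0173). That call was lost without DMSO replicate C (log2 0.23), AKTi replicate A (0.35) or EZH2i replicate A (0.30). BID, which caspase 8 cleaves, fell by 0.37 ± 0.09 on the log2 scale under AKTi (0.00136).

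**Figure D3:**
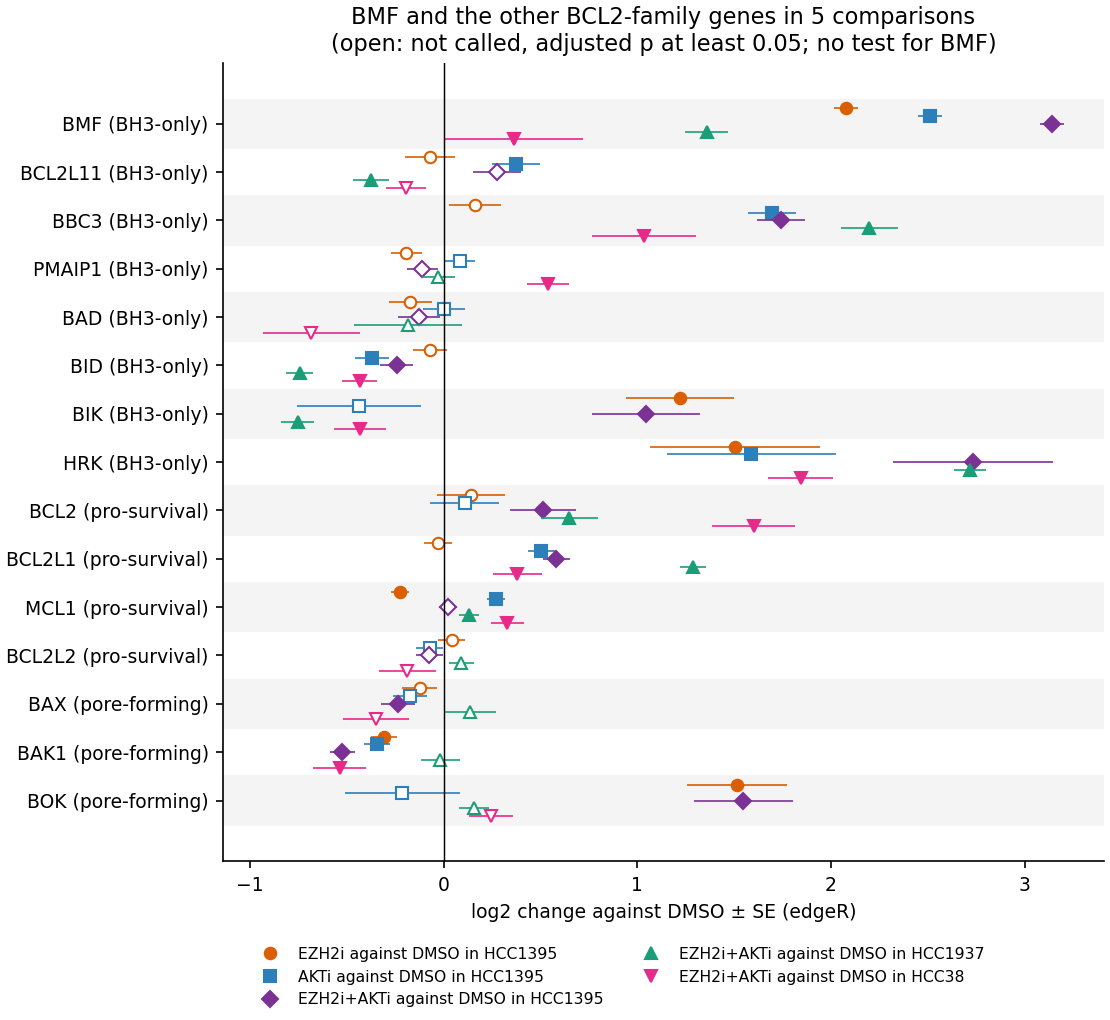
Log2 change against DMSO with its SE for BMF and other BCL2-family genes in 5 comparisons, filled where called at an adjusted p under 0.05 (edgeR) and open otherwise, with BMF filled throughout and not tested. In HCC1395 the BMF values of 3.14, 2.51 and 2.08 exceed those of HRK, and in HCC1937 and HCC38 HRK exceeds BMF.

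In HCC1937, 2 of the 7 other BH3-only genes were called higher and 3 lower under EZH2i+AKTi (median -0.18, all genes 0.03), beside 30.5% and 28.8% over all genes. HRK rose to 38.5 CPM under EZH2i+AKTi, against 5.86 CPM in DMSO (log2 2.72 ± 0.08, edgeR adjusted p = 2.09e-12), and BBC3 rose by 2.20 ± 0.15 (3.51e-08). BIK (-0.75 ± 0.09, 2.53e-06), BID (-0.74 ± 0.07, 3e-07) and BCL2L11 (-0.38 ± 0.09, 0.00261) fell. In HCC38, 3 were called higher and 2 lower (median -0.19, all genes -0.01), beside 16.8% and 14.5% over all genes. HRK rose by 1.84 ± 0.17 (3.27e-05) and PMAIP1, which encodes NOXA, by 0.54 ± 0.11 (0.00456). BBC3 was called as well (1.04 ± 0.27, 0.0146), and not without DMSO replicate B (log2 1.0) or C (0.98). HCC38, with BMF below 1 CPM in every library, thus had other BH3-only genes called higher.

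Per kilobase of exon, BMF stood higher among the BH3-only genes of HCC1395 under treatment than in DMSO. Its level was 18.4 ± 0.931 CPM per kb (SD, n = 3) under EZH2i+AKTi, 11.9 ± 0.499 under AKTi, 8.72 ± 0.145 under EZH2i and 2.07 ± 0.0957 in DMSO. Of the summed level of 8 BH3-only genes, BMF made up 27.3% ± 2.89 under EZH2i+AKTi, 18.7% ± 0.912 under AKTi, 16.4% ± 0.286 under EZH2i and 4.15% ± 0.569 in DMSO. The other 7 summed to 49.4 ± 4.89 CPM per kb under EZH2i+AKTi and 48.3 ± 4.42 in DMSO, a difference smaller than the spread of the libraries. BMF ranked 2 of 8 under EZH2i+AKTi, behind BAD with 27.1 ± 3.73 CPM per kb, and 4 of 8 in DMSO. In HCC1937 its share was 7.65% ± 0.533 under EZH2i+AKTi and 2.59% ± 0.415 in DMSO, while its rank was 7 of 8 under EZH2i+AKTi and 6 of 8 in DMSO. The other 7 summed to 58.2 ± 6.15 CPM per kb there under EZH2i+AKTi and 70.4 ± 5.94 in DMSO, which adds to the difference in share. In HCC38 the BMF share was 0.0609% ± 0.0240 under EZH2i+AKTi and 0.0515% ± 0.00978 in DMSO, the lowest of the 8 genes in both. PMAIP1 had 112 ± 16 CPM per kb in HCC38 under EZH2i+AKTi and 75.6 ± 1.12 in DMSO. The lengths join the exons of all annotated transcripts of a gene.

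**Figure D4:**
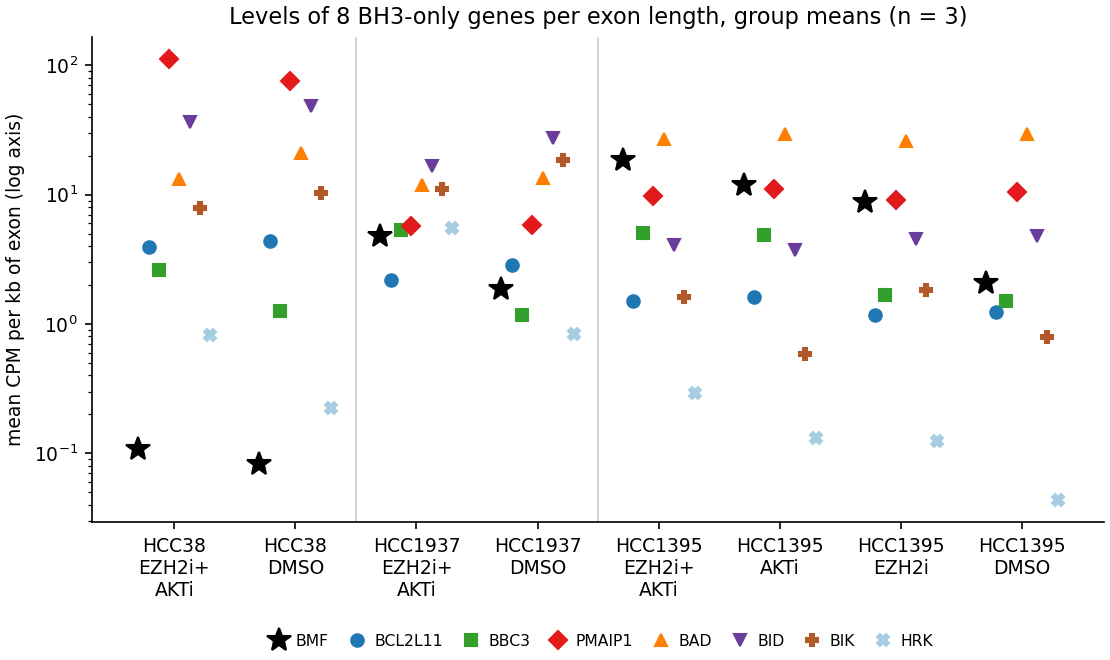
Mean level per kilobase of exon (n = 3, log axis) of 8 BH3-only genes in the 8 groups. BMF stands at 18.4 under EZH2i+AKTi and 2.07 in DMSO in HCC1395, and is the lowest of the 8 in both groups of HCC38.

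The pro-survival genes, whose proteins BH3-only proteins bind, had smaller changes than BMF in HCC1395. BMF was selected on its changes, and 98.7% of all tested genes had smaller ones under EZH2i+AKTi, 99.7% under AKTi and 97.4% under EZH2i. Under EZH2i+AKTi 2 of 4 tested were called higher and 0 lower (median log2 0.27), under AKTi 2 and 0 (0.19) and under EZH2i 0 and 1 (0.01). Over all genes 32.5%, 27.1% and 18.8% were called higher, with medians of 0.07, 0.06 and 0.02, so counts among 4 genes show nothing particular to them. BCL2L1, which encodes BCL-XL, rose by 0.58 ± 0.07 under EZH2i+AKTi (edgeR adjusted p = 3.9e-07) and by 0.51 ± 0.07 under AKTi (4.3e-06). MCL1 had 0.02 ± 0.05 under EZH2i+AKTi (0.695), rose by 0.27 ± 0.05 under AKTi (7.3e-05) and fell under EZH2i (-0.23 ± 0.05, 0.000883). BCL2 was called under EZH2i+AKTi (0.52 ± 0.17, 0.0128), and not without DMSO replicate B (log2 0.35). In HCC1937, 3 of 4 were called higher and 0 lower, with BCL2L1 at 409.7 CPM under EZH2i+AKTi against 168 CPM in DMSO (1.29 ± 0.07, 7.78e-10). In HCC38, 3 of 5 were called higher and 0 lower, among them BCL2 (1.60 ± 0.21, 0.000393). Leaving out any DMSO library of HCC38, or EZH2i+AKTi replicate B, brought that count to 1. Over all genes 30.5% were called higher in HCC1937 and 16.8% in HCC38. BCL2L2 shares reads with the readthrough gene BCL2L2-PABPN1 and is uncertain, and BCL2, BCL2L1, BCL2L11, BAD, BAK1 and BOK overlap genes on the opposite strand.

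Among the pore-forming genes in HCC1395, BAK1 fell under EZH2i+AKTi (-0.52 ± 0.07, edgeR adjusted p = 6.83e-07), AKTi (-0.34 ± 0.07, 0.000172) and EZH2i (-0.31 ± 0.07, 0.000957). BOK, at 1.98 CPM under EZH2i+AKTi against 0.676 CPM in DMSO, rose under EZH2i+AKTi (1.55 ± 0.26, 2.02e-05) and EZH2i (1.51 ± 0.26, 8.44e-05). The group of 3 had 1 called higher and 2 lower under EZH2i+AKTi, 0 and 1 under AKTi, 1 and 1 under EZH2i, 0 and 0 in HCC1937 and 0 and 1 in HCC38. Over all genes the shares called higher and lower were 32.5% and 27.4%, 27.1% and 22.6%, and 18.8% and 14.9% in HCC1395. They were 30.5% and 28.8% in HCC1937 and 16.8% and 14.5% in HCC38, so counts among 3 genes show nothing particular to them. BAX was called lower under EZH2i+AKTi in HCC1395 (-0.24), a call lost in 6 alternatives, 4 of which left out 1 library.

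Genes of the proteins that hold or phosphorylate BMF were tested next. DYNLL2 had a log2 change of -0.04 ± 0.06 under EZH2i+AKTi in HCC1395 (edgeR adjusted p = 0.563) and MYO5A, which encodes myosin Va, 0.07 ± 0.11 (0.589). MAPK9, which encodes JNK2, fell (-0.76 ± 0.05, 1.28e-10). Of these 5 genes, 1 was called higher and 2 lower under EZH2i+AKTi, 0 and 2 under AKTi, 2 and 1 under EZH2i, 1 and 2 in HCC1937 and 2 and 2 in HCC38. The higher calls of MAPK8 were lost in 7 alternatives under EZH2i+AKTi and 6 under EZH2i, and that of DYNLL2 under EZH2i in 10. In HCC38 the calls of DYNLL2 and MYO5A were lost in 5 and 3. Over all genes 27.4%, 22.6% and 14.9% were called lower under EZH2i+AKTi, AKTi and EZH2i in HCC1395, 28.8% in HCC1937 and 14.5% in HCC38. The shares called higher were 32.5%, 27.1% and 18.8% in HCC1395, 30.5% in HCC1937 and 16.8% in HCC38. Of 11 tested caspase cascade genes, which include the caspase inhibitors XIAP, BIRC2 and BIRC5, 1 was called higher and 5 lower under EZH2i+AKTi, 2 and 3 under AKTi, 1 and 1 under EZH2i, 1 and 6 in HCC1937 and 0 and 5 in HCC38. CASP9, the initiator caspase of the mitochondrial route, rose by 0.98 ± 0.09 under EZH2i+AKTi in HCC1395 (4.29e-09), and CYCS, which encodes cytochrome c, fell (-1.19 ± 0.07, 2.38e-11). BIRC2 (-0.41 ± 0.06, 8.79e-06) and BIRC5 (-0.46 ± 0.05, 1.12e-07) were among the 5 lower. The 1 lower gene under EZH2i became 3 without EZH2i+AKTi replicate B. When 1 DMSO library or EZH2i+AKTi replicate B of HCC38 was left out, its lower caspase genes numbered 1 or 2.

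FOXO genes and known FOXO targets, the transcription route that AKT holds back, were mostly called higher. Of 19 tested, 16 were called higher and 1 lower under EZH2i+AKTi in HCC1395 (median log2 1.21), 14 and 0 under AKTi (0.92) and 12 and 3 under EZH2i (0.34). Over all genes 32.5%, 27.1% and 18.8% were called higher and 27.4%, 22.6% and 14.9% lower, with medians of 0.07, 0.06 and 0.02. The members of this list, as of the other lists here, were chosen with earlier results of these data known. The counts therefore depend in part on that choice and are no test of the route. BCL2L11, named above as a known FOXO target, was listed with the BH3-only genes and does not enter these counts. Its log2 changes in HCC1395 were 0.28 under EZH2i+AKTi, 0.37 under AKTi and -0.07 under EZH2i, and it fell in HCC1937. PIK3IP1, a negative regulator of PI3K, rose by 2.87 ± 0.07 under EZH2i+AKTi (edgeR adjusted p = 4.74e-17), 2.65 ± 0.07 under AKTi (3.11e-16) and 0.34 ± 0.08 under EZH2i (0.00188). FBXO32, a ubiquitin ligase of muscle atrophy, rose by 1.59 ± 0.05 under EZH2i+AKTi (3.16e-16) and 1.89 ± 0.05 under AKTi (6.78e-17), and fell under EZH2i (-0.50 ± 0.05, 4.11e-08). TXNIP, which binds thioredoxin, rose by 1.90 ± 0.05 under EZH2i+AKTi (6.6e-17), 1.67 ± 0.05 under AKTi (7.38e-16) and 0.84 ± 0.05 under EZH2i (5.49e-11).

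As BMF did, TXNIP had a negative log2 interaction (-0.61 ± 0.07, edgeR adjusted p = 3.24e-05), and its rise under both agents was 0.918 times the summed single rises in CPM. CCNG2, an atypical cyclin (-0.36 ± 0.07, 0.00728), and KLHL24, a ubiquitin ligase adaptor (-0.38 ± 0.09, 0.0305), were the other FOXO targets with a called interaction. That of CCNG2 was lost without EZH2i replicate A (log2 -0.27), and that of KLHL24 was lost when any of 10 libraries was left out.

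In HCC1937, 17 of 20 FOXO genes and targets were called higher and 1 lower (median 1.15), and in HCC38 11 of 19 and 0 (median 0.38), beside 30.5% and 16.8% higher over all genes. The shares called lower over all genes were 28.8% in HCC1937 and 14.5% in HCC38. PIK3IP1 rose by 3.98 ± 0.10 in HCC1937 (edgeR adjusted p = 3.6e-13) and by 2.54 ± 0.23 in HCC38 (3.13e-05). SESN3, a stress-responsive regulator of mTORC1, rose by 4.0 ± 0.17 in HCC1937 (1.68e-11) and 2.56 ± 0.23 in HCC38 (3.16e-05). FOXO4 rose by 2.72 ± 0.11 in HCC1937 (6.3e-11) and 1.55 ± 0.25 in HCC38 (0.00113). TXNIP rose by 1.21 ± 0.06 in HCC1937 (3.43e-10) and had 0.27 ± 0.11 in HCC38 (0.0742). Several FOXO targets were thus called higher in HCC38, where BMF was near 0.

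Genes of PRC2, the complex that EZH2i targets, were in part lower. Of 10, 2 were called higher and 7 lower under EZH2i+AKTi in HCC1395 (median log2 -0.45), 2 and 7 under AKTi (-0.35), 0 and 2 under EZH2i (-0.05), 1 and 6 in HCC1937 (-0.27) and 1 and 1 in HCC38 (-0.05). Over all genes 27.4%, 22.6%, 14.9%, 28.8% and 14.5% were called lower in these comparisons. The 2 lower under EZH2i became 4 without EZH2i+AKTi replicate B or with DESeq2. EZH2 itself fell under EZH2i+AKTi (-0.87 ± 0.05, edgeR adjusted p = 2.52e-12) and AKTi (-0.82 ± 0.05, 1.28e-11) and had -0.08 ± 0.05 under EZH2i (0.202). EZH1, the other catalytic subunit, rose by 0.92 ± 0.08 under EZH2i+AKTi (6.69e-09). Tazemetostat blocks the enzyme, whose activity these RNA levels do not measure.

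Genes of signalling known from mammary involution, the regression of the gland after weaning, gave 10 called higher and 3 lower of 13 under EZH2i+AKTi in HCC1395 (median log2 0.55), 9 and 1 under AKTi (0.37), 2 and 3 under EZH2i (0.02), 6 and 4 in HCC1937 (0.08) and 9 and 1 in HCC38 (0.51). Over all genes the shares called higher and lower were 32.5% and 27.4%, 27.1% and 22.6%, 18.8% and 14.9%, 30.5% and 28.8%, and 16.8% and 14.5% in these comparisons. CEBPD, a transcription factor that STAT3 can induce, rose by 2.14 ± 0.08 under EZH2i+AKTi (edgeR adjusted p = 1.27e-14) and 1.22 ± 0.08 under AKTi (1.38e-10), and had 0.18 ± 0.09 under EZH2i (0.106). Its log2 interaction was positive (0.74 ± 0.11, 0.00127), the opposite sign to that of BMF. In HCC38 CEBPD was lower under EZH2i+AKTi (29.4, 26.5 and 19.1 CPM) than in DMSO (38.6, 44.6 and 38.3). In HCC1937 the CEBPD groups overlapped, with 20.4, 21.4 and 21.8 CPM under EZH2i+AKTi and 25.3, 21.3 and 19.4 in DMSO. GATA3, a luminal transcription factor, rose by 0.72 ± 0.17 under EZH2i+AKTi in HCC1395 (0.000897), 1.66 ± 0.06 in HCC1937 (8.03e-12) and 0.95 ± 0.09 in HCC38 (4.39e-05). STAT3 was called higher in HCC1395 under EZH2i+AKTi (0.13 ± 0.06, 0.0442), a call lost in 15 of 19 alternatives. In HCC1937 STAT3 was called lower (-0.17), a call lost in 2 alternatives.

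The genes beside BMF on the chromosome had smaller log2 changes than BMF in HCC1395, as most genes had. BMF was selected on these changes, and 98.7% of all tested genes had smaller ones under EZH2i+AKTi, 99.7% under AKTi and 97.4% under EZH2i. The contrast with BMF therefore shows nothing particular to its neighbours. Within 500 kb of its start lie 20 other protein-coding genes, of which 18 were tested in HCC1395. Their log2 changes ran from -0.61 to 0.87 under EZH2i+AKTi, from -0.95 to 0.94 under AKTi and from -0.71 to 0.44 under EZH2i. Of these genes, 5 were called higher and 6 lower under EZH2i+AKTi, 6 and 4 under AKTi and 3 and 2 under EZH2i, close to the shares over all genes of 32.5% and 27.4%, 27.1% and 22.6%, and 18.8% and 14.9%. Their most positive log2 change was that of IVD under EZH2i+AKTi (0.87 ± 0.30) and AKTi (0.94 ± 0.30), the gene of an enzyme of leucine breakdown, at 1.12 and 1.19 CPM under these treatments against 0.617 CPM in DMSO. Both IVD calls were lost without DMSO replicate B (log2 0.72 and 0.79). Under EZH2i it was that of CHST14, a sulfotransferase gene 362 kb away (0.44 ± 0.07, edgeR adjusted p = 4.99e-05). BUB1B, a spindle checkpoint kinase gene 52.1 kb from BMF, fell under EZH2i+AKTi (-0.46 ± 0.07, 9.92e-06). SRP14, of the signal recognition particle and 69.7 kb away on the other side, rose by 0.31 ± 0.08 (0.00238). In HCC1937, 4 of 16 tested neighbours were called higher and 7 lower, with log2 changes of -1.18 to 1.08 beside 1.36 for BMF. Over all genes 30.5% were called higher and 28.8% lower in HCC1937. In HCC38, 1 and 3 of 16 were called, beside 16.8% higher and 14.5% lower over all genes. The HCC38 range of -0.62 to 0.51 held the BMF change of 0.36. GPR176, an orphan receptor gene, was the highest there (0.51 ± 0.11, 0.00695).

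**Figure D5:**
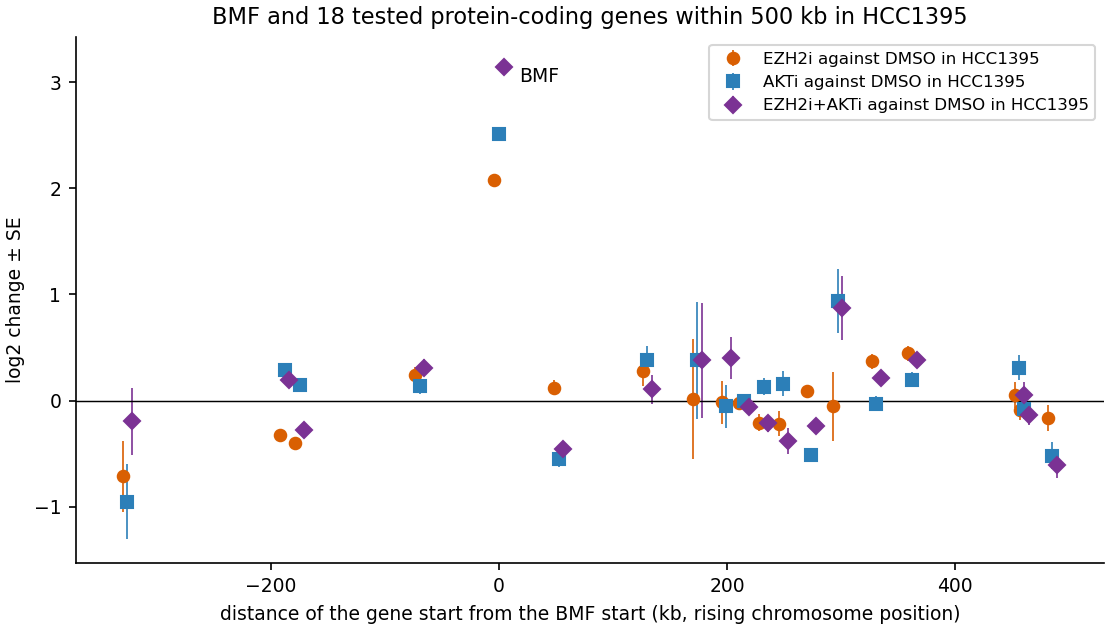
Log2 change with its SE in HCC1395 for BMF and 18 tested protein-coding genes by the distance of their start from that of BMF, in kb. The points of BMF lie between 2.08 and 3.14, and the highest neighbour, IVD, lies at 0.94.

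The genes whose 5 log2 changes lay nearest to those of BMF were ranked over the 11563 protein-coding genes that averaged 2 CPM or more. The 5 changes are 3 of HCC1395, which share its DMSO libraries, and 1 each of HCC1937 and HCC38. The 10 nearest were EPHX4, IGF1R, NOXA1, ITGB4, PLEKHG1, DOCK8, LIPH, S1PR1, ALDH1A3 and FGD3, at Euclidean distances of 0.891 to 1.56 against a median of 4.82 over all genes. The average runs over all lines, and several of the 10 passed it through HCC38 or HCC1937 while low in HCC1395, on which 3 of the 5 changes rest. In HCC1395, LIPH averaged 0.374 CPM under EZH2i+AKTi and 0.0642 CPM in DMSO, FGD3 1.40 and 0.163, PLEKHG1 1.13 and 0.166, and S1PR1 2.09 and 0.228. The AKTi calls of LIPH, FGD3, PLEKHG1 and S1PR1 in HCC1395 were each lost when 1 library was left out, AKTi replicate C for S1PR1 (log2 0.97) and DMSO replicate A for the other 3 (log2 1.65, 1.24 and 0.96). Their nearness to BMF is therefore imprecise. EPHX4, an epoxide hydrolase gene, was also low in HCC1395, with 2.87 ± 0.274 CPM under EZH2i+AKTi, 1.41 ± 0.185 under AKTi, 0.910 ± 0.400 under EZH2i and 0.312 ± 0.135 in DMSO (SD, n = 3). Its log2 changes were 3.21 under EZH2i+AKTi, 2.18 under AKTi and 1.56 under EZH2i in HCC1395, 0.72 in HCC1937 and 0.41 in HCC38. IGF1R, the receptor of insulin-like growth factors, had 3.03 under EZH2i+AKTi, 2.23 under AKTi and 1.16 under EZH2i in HCC1395, 1.84 in HCC1937 and 0.65 in HCC38. ITGB4, an integrin of hemidesmosomes, had 3.57, 2.82 and 0.95 in HCC1395 under EZH2i+AKTi, AKTi and EZH2i. In HCC38 it stood at 172 ± 20.03 CPM under EZH2i+AKTi and 136 ± 4.11 CPM in DMSO (SD, n = 3), far above BMF. NOXA1 encodes an activator of NADPH oxidase and is not PMAIP1. By Pearson's correlation over the 24 libraries, each line centred on its own mean, IGF1R (0.928) and ALDH1A3 (0.936) were the 2 of these 10 that were also among the 10 most alike, so the list depends on the measure.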

How the data were processed

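The authors deposited raw counts per gene for each of 24 libraries of polyadenylated RNA, with 58735 entries a file. Per the submitters' processing notes, fastp, HISAT2 2.0.5, DESeq2 and the genome build hg38 were used. For the counter, annotation release and strandedness: not given in the sources used here. Library totals of 33469927 to 51815656 counts set the precision.

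From these counts, edgeR 4.0.16 (limma 3.58.1, R 4.3.3) gave TMM-scaled CPM and quasi-likelihood tests per line, with all 12 libraries of HCC1395 in 1 fit, and a fit of all 24 libraries for differences between lines. Genes were filtered by filterByExpr with a minimum count of 10, leaving 18074 (HCC1395), 17100 (HCC38), 17692 (HCC1937) and 20697 (all). Calls are at a Benjamini-Hochberg adjusted p under 0.05 over all genes tested. Errors of BMF on the CPM scale come from the 3 libraries of a group. Alternatives were RLE scaling, library totals, other filters, DESeq2 1.42.0, other sets of libraries, a replicate block and leaving out each library.

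Named genes are BMF, members of 8 gene lists, tested neighbours within 500 kb and the 10 nearest by profile. The members and lists were chosen with earlier results of these data known. In simulated counts few genes were changed, 194 of 17649 for EZH2i in HCC1395 and 200 of 17643 for the interaction. On these counts the EZH2i test recovered 73.5% of 2-fold and 94.8% of 4-fold changes, and the interaction test 67% and 88%. False calls were 7.39% of calls for EZH2i, 7.74% for the interaction, 5.91% in HCC38, 12.7% in HCC1937 and 10.2% for the response of HCC38 less HCC1395, above the nominal level. Each share comes from a single run with 11 to 26 false calls. In the real data far larger shares were called except for the interaction, such as 18.8% higher and 14.9% lower under EZH2i. The simulated rates need not hold there.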

Additional observations from a re-analysis of the deposited data

Results flagged for a closer look

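Responses of other genes differed between agents or lines by a test of the difference itself (edgeR, adjusted over all genes), and the values are log2 differences. In HCC1395 the log2 interaction was -0.61 for TXNIP, -0.38 for KLHL24, -0.36 for CCNG2, -0.35 for IGFBP5 and 0.74 for CEBPD. The IGFBP5 call was lost in 9 alternatives, 8 of which left out 1 library, with values down to -0.22 in size.

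Of 15 other BCL2-family genes, 7 had a called difference between the EZH2i+AKTi responses of HCC38 and HCC1395, 3 larger and 4 smaller in HCC38, beside 33% over all genes. These were PMAIP1 (0.67), BCL2 (1.1), MCL1 (0.33), BCL2L11 (-0.45), BIK (-1.46), BOK (-1.28) and BCL2L10 (-3.15), the last with a standard error of 1.73. Between HCC1937 and HCC1395, 6 were called, beside 23.3% over all genes: BCL2L1 (0.70) and BAK1 (0.50) were larger in HCC1937, and BCL2L11 (-0.66), BID (-0.51), BIK (-1.81) and BOK (-1.40) smaller. Between HCC38 and HCC1937, 8 were called, beside 32% over all genes: PMAIP1 (0.59), BID (0.34), BCL2 (0.98) and MCL1 (0.23) were larger in HCC38, and BBC3 (-1.13), HRK (-0.84), BCL2L1 (-0.88) and BAK1 (-0.49) smaller. Leaving out 1 library lost the BCL2L11 call between HCC38 and HCC1395 in 6 cases, and between HCC38 and HCC1937 the MCL1 call in 6 and the BID call in 4. The BAK1 call between HCC1937 and HCC1395 was lost in 1.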

How the results depend on the processing

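Of 347 alternative values of BMF, 337 moved by less than the spread (SD) between replicates and 10 by more. Leaving out 1 of 3 libraries can seldom shift a group mean by that spread, and many alternatives left out libraries outside the comparison. The count is therefore a weak check. The CPM interaction, near 0, was the one whose sign turned past that spread. The counts of called log2 interactions, 95 higher and 191 lower, depended most on the processing: 146 and 125 with RLE scaling, 28 and 50 in one fit of all 24 libraries, and 219 higher without a low-count filter and 280 higher with DESeq2. One fit of all 24 libraries called 4341 genes higher in HCC38, against 2874. The cause was not tested. Leaving out 1 library gave 38 to 485 interactions higher, 64 to 656 lower, 1995 to 4384 genes lower under EZH2i in HCC1395 and 1060 to 3110 lower in HCC38. For BMF it gave 2.02 to 2.11 under EZH2i, 2.44 to 2.54 under AKTi, 1.04 to 1.14 for EZH2i+AKTi against EZH2i, 0.60 to 0.70 against AKTi, -1.48 to -1.32 for the log2 interaction and -2.59 to 4.23 CPM for the CPM interaction. The response of BMF in HCC38 less that in HCC1395 ran from -3.14 to -2.59, and that in HCC38 less HCC1937 from -1.35 to -0.80. In HCC38 the BMF change ran from 0.01 to 0.56, and under the stricter filter BMF was not tested there. At its counts of 12 to 38 a library, depth limits any statement on HCC38. By Pearson's correlation 2 of the 10 nearest genes were shared.

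Few libraries of the same replicate letter deviated alike: 0 of 18 pairs in HCC1395, 1 of 3 in HCC38 and 0 of 3 in HCC1937 had correlated deviations over 0.1. Pairs of different letters in HCC38 reached 0.166 and -0.178. With 3 libraries a group, this check cannot exclude a culture or batch shared by a letter. With the replicate block the BMF log2 interaction was -1.45, its change under EZH2i 2.08, and 84 interactions were called higher and 163 lower.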
